A study of Mus musculus with 12 samples.

Results

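Matrix metalloproteinases and their tissue inhibitors were followed in pulmonary CD11c+ cells of mice that carried Pneumocystis, a fungus that lives in the air spaces. The genes were Mmp2, Mmp9, Mmp12, Mmp13, Mmp14, Mmp19, Timp1, Timp2 and Timp3. They were found as probe sets that carry 1 of these symbols alone, which gave 9 of 9 genes and 22 of 45101 probe sets, and they are 9 of the 18193 genes measured. The list was selected on the log2 ratios of these genes in all 4 groups, which were known when it was proposed. Their values are therefore a description, and their counts past a threshold are given without being read as a test.

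The groups were IFNAR-/- mice at day 14 after infection, wildtype mice at day 14, IFNAR-/- mice at day 7 and wildtype mice at day 7, with 3 mice and 3 arrays in each. IFNAR-/- mice lack the receptor for type I interferons. All mice were infected through the trachea, no uninfected mice were analysed here, and the labels give neither strain nor age. Dendritic cells and lung macrophages carry CD11c on their surface, and the cells were taken with magnetic beads at a stated purity above 90% with under 5% lymphocytes.

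Metalloproteinases are zinc enzymes that cut collagens, elastin, other matrix proteins and many cytokines. Most are made as inactive proenzymes, and a TIMP blocks an active enzyme by binding its catalytic site. Macrophages are a major source of several of them in the lung, while fibroblasts, epithelium and neutrophils make others.

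A value is the log2 ratio of a gene to about its median over the 12 arrays. It compares arrays for 1 gene and says nothing of which gene is more abundant. For the same reason the labelled cell type could not be checked by the presence or absence of its markers. Itgax, which codes for CD11c, lay between -0.28 and 0.25 in all 12 arrays. In bulk RNA, fewer cells of a type and less RNA per cell cannot be told apart. Differences carry the standard error (SE) of a limma fit to all genes, and a gene passed when its p, adjusted by Benjamini-Hochberg over all genes, was under 0.05.

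A few arrays stood apart. IFNAR-/- day 7 mouse 3 held the highest value of the 12 arrays for 10 of 12 fibroblast, 9 of 15 lung epithelial, 11 of 13 endothelial and 8 of 11 measured neutrophil markers. It was also the only array with a raised Y-linked transcript, Eif2s3y, at 2.89. The X-linked transcript Xist was at -3.98 in it, against -1.2 to 1.21 in all other arrays. The labels do not give the sex of the mice, and a part of sex in the day 7 values was not tested. Wildtype day 7 mouse 1 was high in lung epithelial and endothelial markers, with medians of 1.37 and 1.93. IFNAR-/- day 14 mouse 2 had the widest spread of log2 ratios, an interquartile range of 0.582. RNA integrity was read from actin and Gapdh control probe sets as their log2 ratio at the 5' end minus that at the 3' end. These ratios are also relative to each probe set's median, so the measure compares arrays and gives no absolute integrity. This measure was 0.064 to 0.163 in IFNAR-/- day 14 arrays, -0.912 to -0.184 in wildtype day 14, -0.52 to 0.11 in IFNAR-/- day 7 and 0.078 to 0.178 in wildtype day 7 arrays. Ifnar1, as the mean of its probe sets, was at 0.1, -1.01 and 0.39 in IFNAR-/- day 14 arrays against -0.15, 0.07 and 0.11 in wildtype day 14 arrays, and at -0.53, -1.38 and -0.26 in IFNAR-/- day 7 arrays against 0.08, 0.64 and 0.07 in wildtype day 7 arrays. The groups overlapped at day 14 and not at day 7. The labels do not say which part of the gene is altered, so this does not check the genotype.

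**Figure D1:**
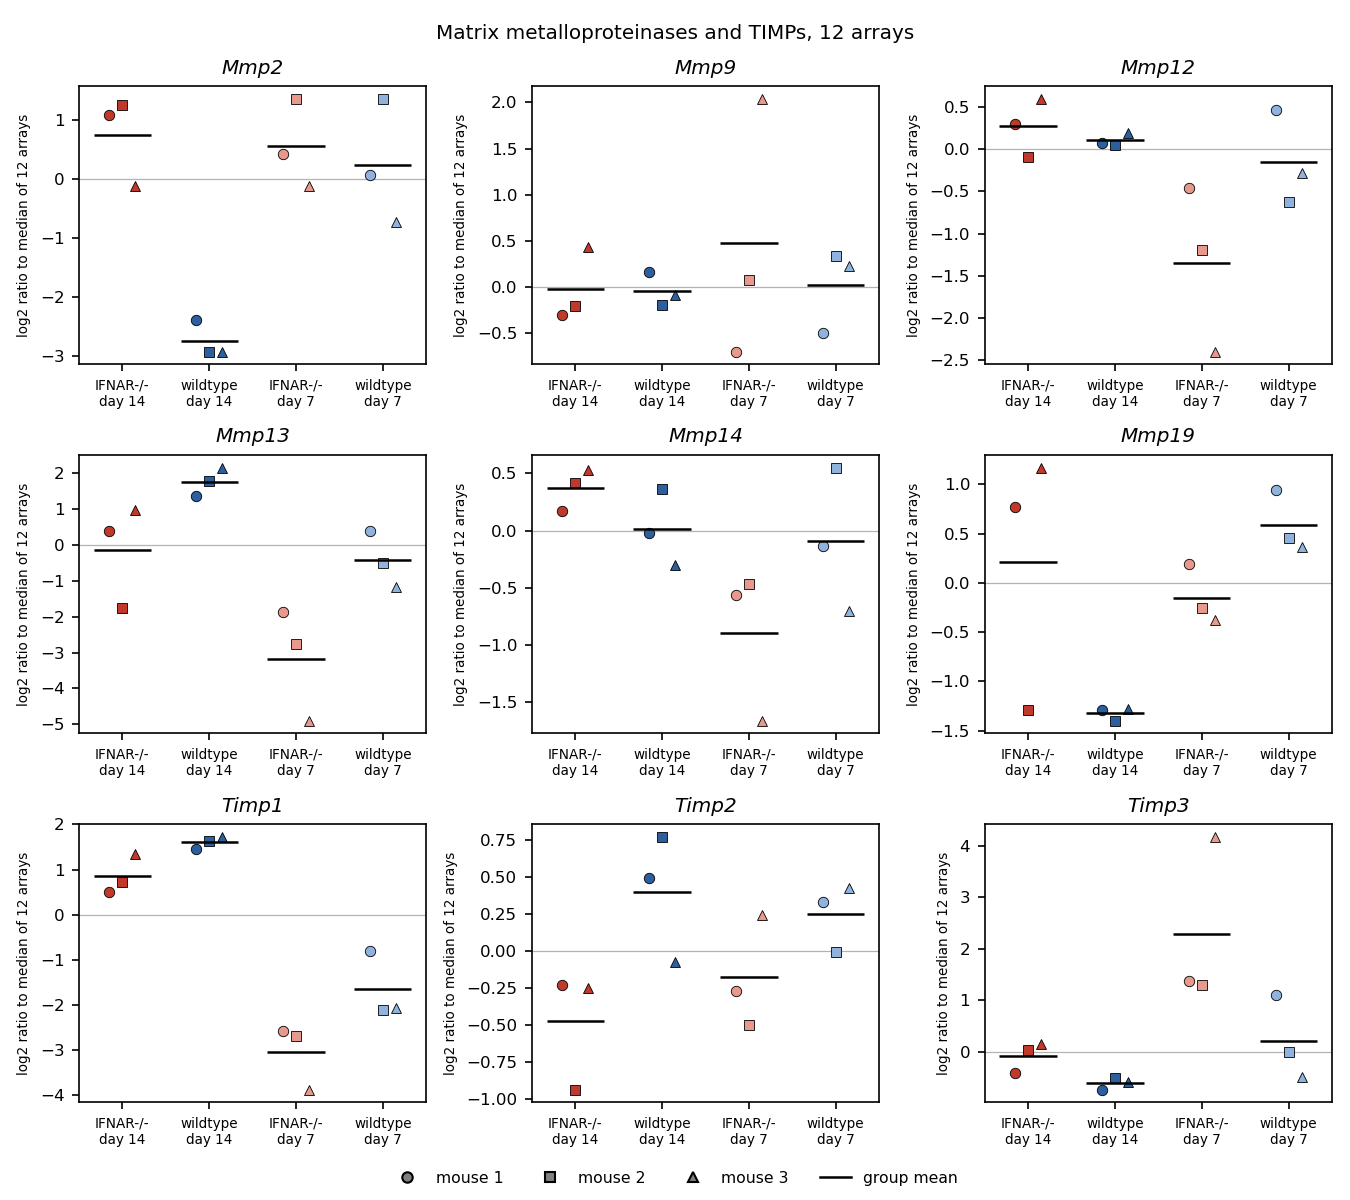
Log2 ratio of each gene to its median over the 12 arrays (vertical axis), by group (horizontal axis), with 1 symbol per mouse and a bar at the group mean. Mmp2 was at -2.92 to -2.38 in wildtype day 14 arrays, below all 9 others, and Timp1 was above 0 in all 6 day 14 arrays and below 0 in all 6 day 7 arrays.

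Mmp2, gelatinase A, which cuts denatured collagen and type IV collagen of basement membranes, was low in 1 group only. It was at 1.09, 1.26 and -0.11 in IFNAR-/- day 14 arrays against -2.38, -2.92 and -2.92 in wildtype day 14 arrays. At day 7 it was at 0.42, 1.35 and -0.11 in IFNAR-/- arrays against 0.07, 1.36 and -0.73 in wildtype arrays. The wildtype day 14 arrays lay below all the others, and the other 3 groups overlapped one another. In order of their means, the groups were IFNAR-/- day 14 at 0.75 ± 0.75 (SD, n = 3), IFNAR-/- day 7 at 0.55 ± 0.74, wildtype day 7 at 0.23 ± 1.05 and wildtype day 14 at -2.74 ± 0.31. The difference was 3.49 ± 0.53 (SE), or 11.2-fold, between IFNAR-/- and wildtype at day 14, and 0.32 ± 0.53 at day 7. From day 7, Mmp2 fell in wildtype cells by day 14, with a difference of -2.97 ± 0.53, and the same difference was 0.20 ± 0.53 in IFNAR-/- cells. The genotype difference changed between days by 3.17 ± 0.75, which did not pass (limma adjusted p 0.0521). It passed with array weights in limma, at 2.83. It also passed without IFNAR-/- day 14 mouse 3, at 3.59, or without wildtype day 7 mouse 3, at 3.65. Without both IFNAR-/- day 7 mouse 3 and IFNAR-/- day 14 mouse 2 it was 2.58 ± 0.80 and did not pass.

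Both probe sets of Mmp2 gave these values. At day 14 the genotype difference was 3.45 on 1416136_at and 3.52 on 1439364_a_at. Without both IFNAR-/- arrays that stand apart, day 7 mouse 3 and day 14 mouse 2, it was 3.23 ± 0.57. Whichever 1 array was left out, it ran from 3.23 to 3.92 and passed in 12 of 12 fits. With the RNA integrity measure as a covariate it was 3.81 and did not pass. With poly-A spike-in signal as a covariate it was 3.32 and passed. The difference between days in wildtype cells did not pass with either covariate, at -3.29 with RNA integrity and -2.63 with poly-A signal.

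The wildtype day 14 arrays, where Mmp2 was low, also had the lowest fibroblast and lung epithelial markers. Fibroblast markers had medians of -0.33 to -0.22 in these arrays and lung epithelial markers of -0.54 to -0.48, both below all 9 other arrays as for Mmp2. The arrays highest in these markers were not highest in Mmp2. IFNAR-/- day 7 mouse 3, with medians of 1.82 and 2.13, had Mmp2 at -0.11. Wildtype day 7 mouse 1, with 0.6 and 1.37, had it at 0.07. Alveolar macrophage medians were -1.11 to -0.61 in wildtype day 14 arrays and overlapped those of IFNAR-/- day 14, at -0.7 to 0.05. Poly-A signal was -3.34 to -1.82 in wildtype day 14 arrays, and IFNAR-/- day 7 mouse 3 was as low, at -3.38. Wildtype day 7 arrays were at 0.79 to 2.09, so poly-A signal did not overlap between days in wildtype cells. IFNAR-/- day 7 mice 1 and 2 were at 1.37 and 0.55, so the slope of this covariate leans on mouse 3. Both limits hold for the values given with poly-A signal as a covariate. Dendritic cell markers did not follow Mmp2, with medians of -0.33 to -0.07 in wildtype day 14 arrays and -0.49 to -0.2 in IFNAR-/- day 7 arrays. The part of the marker lists in the result was not tested.

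Timp1, a secreted inhibitor of most metalloproteinases that is induced in inflamed tissue, was the member with the clearest order in time. It was at 0.51, 0.73 and 1.34 in IFNAR-/- day 14 arrays against 1.45, 1.64 and 1.73 in wildtype day 14 arrays. The day 7 values were -2.59, -2.70 and -3.89 in IFNAR-/- arrays against -0.80, -2.11 and -2.08 in wildtype arrays. None of the 4 groups overlapped another, in the order wildtype day 14, IFNAR-/- day 14, wildtype day 7 and IFNAR-/- day 7. Timp1 rose in both genotypes, by 3.92 ± 0.40 (SE) or 15.1-fold in IFNAR-/- cells and by 3.27 ± 0.40 or 9.65-fold in wildtype cells. Both rises passed whichever 1 array was left out. The medians of 11 measured alveolar macrophage markers ran the other way, at -0.7 to 0.05 in IFNAR-/- day 14 arrays, -1.11 to -0.61 in wildtype day 14, 0.94 to 1.05 in IFNAR-/- day 7 and -0.07 to 0.71 in wildtype day 7 arrays, and their part in Timp1 was not tested. The genotype differences of -0.75 ± 0.40 at day 14 and -1.40 ± 0.40 at day 7 did not pass.

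Mmp13, collagenase 3, which cleaves fibrillar collagens and does the work of interstitial collagenase in mice, had the widest range over the 12 arrays, 7.06 on the log2 scale. It was at 0.38, -1.77 and 0.97 in IFNAR-/- day 14 arrays against 1.36, 1.80 and 2.16 in wildtype day 14 arrays. In day 7 arrays it was at -1.87, -2.77 and -4.90 in IFNAR-/- arrays against 0.38, -0.50 and -1.16 in wildtype arrays. At each day every IFNAR-/- array lay below every wildtype array, and in each genotype every day 14 array lay above every day 7 array. The rise in IFNAR-/- cells was 3.04 ± 0.80 (SE), or 8.23-fold, and the difference between days in wildtype cells was 2.20 ± 0.80, which did not pass. The rise passed in 8 of 12 fits with 1 array left out and not without IFNAR-/- day 7 mouse 3, at 2.18, day 7 mouse 2, or day 14 mouse 1 or 3. Without both arrays that stand apart, the wildtype difference was 2.20 ± 0.39 and passed. With poly-A signal as a covariate it was 4.18 and passed, but poly-A signal did not overlap between days in wildtype cells. The genotype differences, -1.91 ± 0.80 at day 14 and -2.75 ± 0.80 at day 7, did not pass either. Without both arrays that stand apart these were -1.09 ± 0.44 and -1.89 ± 0.44, and with poly-A signal as a covariate the day 14 difference was -2.86 and passed.

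Mmp12, the macrophage elastase, and Mmp14, a metalloproteinase anchored in the membrane that activates the proenzyme of Mmp2, rose with time in IFNAR-/- cells. Mmp12 was at 0.30, -0.09 and 0.60 in IFNAR-/- day 14 arrays against 0.08, 0.05 and 0.19 in wildtype day 14 arrays. At day 7 it was at -0.46, -1.20 and -2.40 in IFNAR-/- arrays against 0.46, -0.62 and -0.28 in wildtype arrays. The genotypes overlapped at both days, and in IFNAR-/- cells the days did not. Between days, Mmp12 differed by 1.63 ± 0.41 (SE) in IFNAR-/- cells and by 0.25 ± 0.41 in wildtype cells, and the first passed. Its largest departure was in the array rich in lung cell markers, and without both arrays that stand apart the rise was 1.28 ± 0.33 and did not pass. It passed in 8 of 12 fits with 1 array left out, over which it ran from 1.10 to 2.07.

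Mmp14 was at 0.17, 0.42 and 0.53 in IFNAR-/- day 14 arrays against -0.02, 0.36 and -0.30 in wildtype day 14 arrays. The day 7 values were -0.56, -0.47 and -1.66 in IFNAR-/- arrays against -0.13, 0.55 and -0.70 in wildtype arrays. In IFNAR-/- cells no day 14 array overlapped a day 7 array, and every other pair of groups of the same day or genotype overlapped. Mmp14 rose by 1.27 ± 0.35 (SE) in IFNAR-/- cells, against a difference of 0.11 ± 0.35 in wildtype cells. Without both arrays that stand apart the rise was 0.87 ± 0.35 and did not pass, and it passed in 6 of 12 fits with 1 array left out. With RNA integrity as a covariate it was 1.26 and did not pass. Its 3 probe sets gave differences of 1.44, 1.15 and 1.22 in IFNAR-/- cells but disagreed between genotypes at day 14, at 1.37, -0.32 and 0.02.

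Timp1, Mmp13 and Mmp12 moved alike over the arrays. Pearson's r over the 12 arrays was 0.86 for Mmp13 with Timp1, 0.86 for Mmp12 with Mmp13 and 0.80 for Mmp12 with Timp1. Over the 10 arrays other than those that stand apart it was 0.94, 0.79 and 0.76. The points share the 4 groups and the arrays, so these values describe these arrays. In the RefSeq gene table Mmp12 and Mmp13 are neighbours on chromosome 9 and Timp1 is on chromosome X.

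The sequences around the starts of these 3 genes are shown because the genes moved together. Each window runs 5' to 3' from 250 bases before to 50 after an annotated start, from RefSeq on GRCm38.p6, and all lie on the plus strand. They are chr9:7272264-7272563 for Mmp13, chr9:7344147-7344446 and chr9:7347124-7347423 for both starts of Mmp12, and chrX:20869916-20870215 for Timp1. Capitals mark matches on either strand to AP-1 (TGANTCA), a site of Fos and Jun proteins, to ISRE (GAAA and GAAA with any 2 bases between), a site of interferon-activated factors, or to GAS (TTCNNNGAA), a site of STAT proteins.
Mmp13: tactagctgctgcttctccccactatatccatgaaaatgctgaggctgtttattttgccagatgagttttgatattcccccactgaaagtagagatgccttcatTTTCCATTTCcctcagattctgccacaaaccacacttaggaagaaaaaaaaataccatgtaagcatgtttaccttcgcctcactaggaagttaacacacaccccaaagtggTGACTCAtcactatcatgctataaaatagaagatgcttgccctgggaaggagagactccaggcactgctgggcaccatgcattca
Mmp12 start 1: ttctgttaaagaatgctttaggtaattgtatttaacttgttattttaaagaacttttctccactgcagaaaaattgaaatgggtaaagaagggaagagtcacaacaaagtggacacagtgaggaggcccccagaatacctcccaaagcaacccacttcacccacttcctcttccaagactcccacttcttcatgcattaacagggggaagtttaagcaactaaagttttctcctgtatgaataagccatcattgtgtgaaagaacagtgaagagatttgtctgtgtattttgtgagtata
Mmp12 start 2: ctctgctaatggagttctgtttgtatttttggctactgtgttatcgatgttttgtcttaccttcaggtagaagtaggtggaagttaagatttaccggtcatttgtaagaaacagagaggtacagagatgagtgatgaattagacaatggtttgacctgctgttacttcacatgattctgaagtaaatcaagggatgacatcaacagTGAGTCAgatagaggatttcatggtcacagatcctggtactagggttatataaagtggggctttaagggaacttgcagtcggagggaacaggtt
Timp1: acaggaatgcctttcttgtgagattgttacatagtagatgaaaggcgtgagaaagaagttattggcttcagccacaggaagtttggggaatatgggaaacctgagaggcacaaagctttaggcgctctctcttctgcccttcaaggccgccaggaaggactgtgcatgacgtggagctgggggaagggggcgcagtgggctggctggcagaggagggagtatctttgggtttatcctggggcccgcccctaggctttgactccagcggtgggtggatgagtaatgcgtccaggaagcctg
Mmp13 held an AP-1 match whose first base lies 35 bases before the start and an ISRE match 146 bases before it, which do not overlap. The second start of Mmp12 held an AP-1 match 44 bases before the start. The first start of Mmp12 and the Timp1 window held no exact match to the 3 motifs. Variant sites were not searched, and the Timp1 window holds tgagtaa, which is close to the AP-1 letters. Windows were at hand for 6 of the 9 genes, 7 windows in all, and those of Mmp14, Timp2 and Timp3 held none either. Of all 32851 windows in the table, 7.81% held the AP-1 letters, 3.44% the ISRE letters and 8.3% the GAS letters. A match is a run of letters and shows no binding.

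Mmp19, a metalloproteinase of basement membranes that macrophages also make, was low in wildtype cells at day 14. It was at 0.77, -1.29 and 1.17 in IFNAR-/- day 14 arrays against -1.29, -1.40 and -1.28 in wildtype day 14 arrays. In day 7 arrays it was at 0.19, -0.26 and -0.38 in IFNAR-/- arrays against 0.94, 0.46 and 0.36 in wildtype arrays. IFNAR-/- day 14 mouse 2 lay among the wildtype day 14 arrays, and the other IFNAR-/- day 14 arrays lay more than 2 log2 units above it. Mmp19 fell with time in wildtype cells, with a difference of -1.91 ± 0.49 (SE) as day 14 minus day 7. That call was lost in 8 of 12 fits with 1 array left out, over which the value ran from -2.02 to -1.73, and with RNA integrity or poly-A signal as a covariate, at -1.78 and -1.21. The genotype difference at day 14 was 1.54 ± 0.49 and did not pass. Without IFNAR-/- day 14 mouse 2 it was 2.29 and passed, and the change of the genotype difference between days was then 3.02 and passed, against 2.27 ± 0.69 with all arrays.

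Timp3, an inhibitor held in the matrix that also blocks ADAM17, was highest in IFNAR-/- cells at day 7. It was at -0.41, 0.03 and 0.14 in IFNAR-/- day 14 arrays against -0.74, -0.51 and -0.60 in wildtype day 14 arrays. At day 7 it was at 1.38, 1.29 and 4.18 in IFNAR-/- arrays against 1.10, 0.00 and -0.50 in wildtype arrays. Every IFNAR-/- array lay above every wildtype array of the same day. Timp3 fell with time in IFNAR-/- cells, with a difference of -2.37 ± 0.65 (SE) as day 14 minus day 7, and the difference was -0.82 ± 0.65 in wildtype cells. Without IFNAR-/- day 7 mouse 3 the value in IFNAR-/- cells was -1.42, and it passed in 6 of 12 fits with 1 array left out. Without both arrays that stand apart it was -1.47 ± 0.41 and did not pass. The genotype differences of 0.53 ± 0.65 at day 14 and 2.08 ± 0.65 at day 7 did not pass. With poly-A signal as a covariate the day 14 difference was 1.56 and passed, and the day 7 difference was 1.01 and did not. The difference between days in wildtype cells was then -2.96 and passed. The slope of this covariate leans on IFNAR-/- day 7 mouse 3, where Timp3 was at 4.18. In wildtype cells poly-A signal did not overlap between days, so no fall of Timp3 there is read from this fit.

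The highest Timp3 value, at 4.18, came from the array with the most transcripts of structural lung cells. Fibroblast markers had a median of 1.82 in IFNAR-/- day 7 mouse 3 and 0.6 in wildtype day 7 mouse 1, and -0.33 to 0.21 in the other 10 arrays. Endothelial markers had medians of 2.44 and 1.93 in the same arrays and -0.41 to 0.49 in the other 10. Fibroblast medians ran from -0.09 to 1.82 in IFNAR-/- day 7 arrays and from -0.14 to 0.6 in wildtype day 7 arrays. IFNAR-/- day 7 mice 1 and 2, at 1.38 and 1.29 for Timp3, had fibroblast medians of -0.09 and -0.04, lung epithelial medians of 0.06 and -0.04 and endothelial medians of 0.02 and 0.49. Cav1, a gene of caveolae that endothelium expresses strongly, was at 1.22 and 1.31 in the same mice. The basement membrane collagen genes Col4a1, at 2.43 and 2.39, and Col4a2, at 2.7 and 2.45, were also high there. These genes were picked with their values in view. Of other matrix genes, Sparc was at 0.04 and 0.56 in these mice, Bgn at 0.11 and 0.28 and Dcn at 0.06 and 0.22. The basement membrane genes that follow lay near 0 or below it. Nid1 was at -0.02 and 0.04, Lama4 at -0.01 and 0.01 and Lamb1 at -0.15 and -0.04. Lamc1 was at -0.01 and -0.13 and Hspg2 at -0.03 and -0.1. The part of lung cells in Timp3 was not tested. Without both arrays that stand apart and wildtype day 7 mouse 1, a fit chosen after the data were seen, the day 7 genotype difference of Timp3 was 1.58 and passed.

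**Figure D2:**
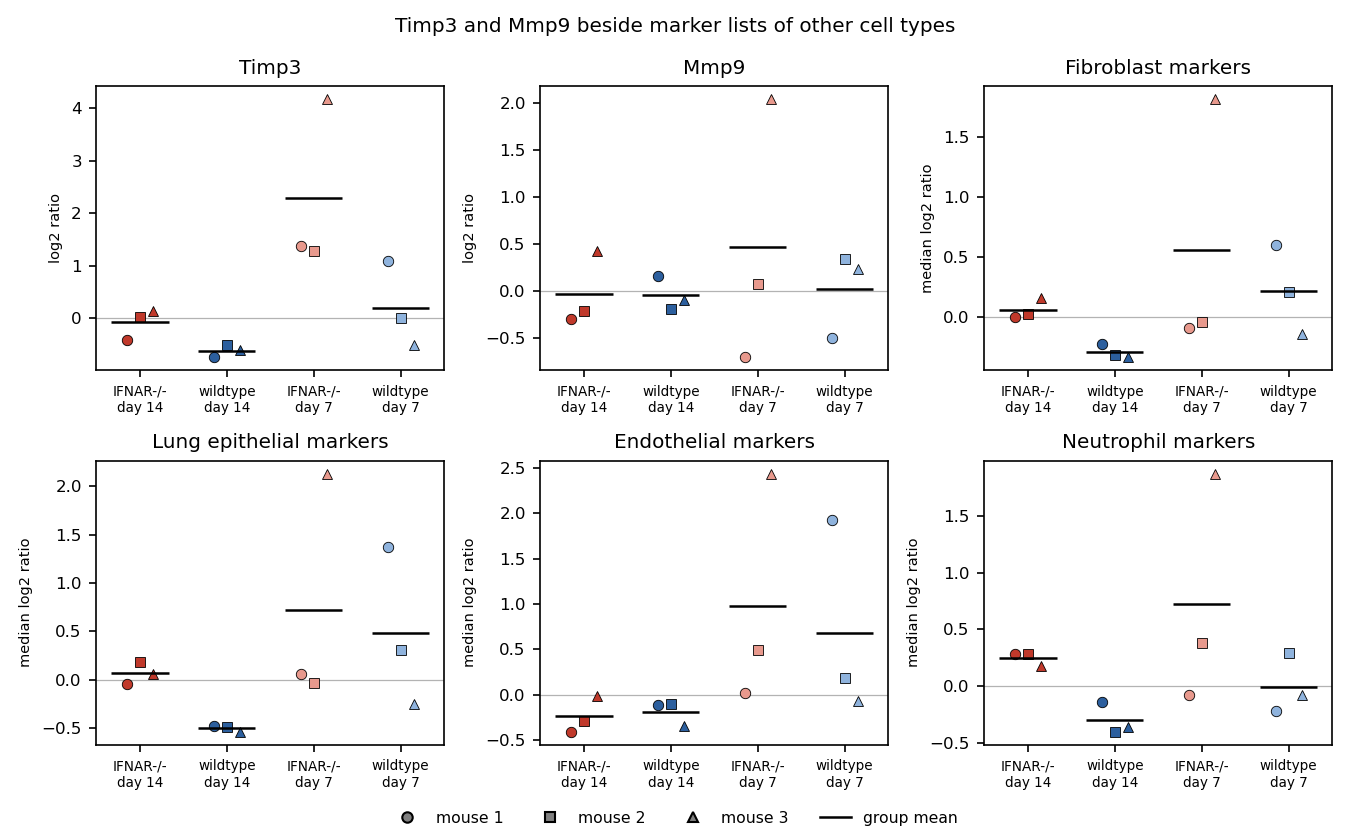
Log2 ratios of Timp3 and Mmp9 and median log2 ratios of 4 marker lists (vertical axes), by group (horizontal axes), with 1 symbol per mouse and a bar at the group mean. IFNAR-/- day 7 mouse 3 is the highest array in all 6 panels, at 4.18 for Timp3, 2.04 for Mmp9 and 1.87 for neutrophil markers.

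Mmp9, gelatinase B, which neutrophils store in granules and macrophages secrete, did not separate the groups. It was at -0.30, -0.21 and 0.43 in IFNAR-/- day 14 arrays against 0.16, -0.19 and -0.09 in wildtype day 14 arrays. The day 7 values were -0.70, 0.08 and 2.04 in IFNAR-/- arrays against -0.50, 0.34 and 0.23 in wildtype arrays. All 4 groups overlapped, and the array at 2.04 is the one with the high neutrophil markers. The genotype difference was 0.01 ± 0.54 (SE) at day 14 and 0.45 ± 0.54 at day 7. Without IFNAR-/- day 7 mouse 3 the day 7 value was -0.33. The neutrophil medians ran from 0.18 to 0.28 in IFNAR-/- day 14 arrays, -0.4 to -0.14 in wildtype day 14, -0.08 to 1.87 in IFNAR-/- day 7 and -0.22 to 0.29 in wildtype day 7 arrays, and their part in Mmp9 was not tested.

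Timp2, a constitutive inhibitor that also takes part in the activation of Mmp2 on the cell surface, depended on the probe set. As the mean of 6 probe sets it was at -0.23, -0.94 and -0.25 in IFNAR-/- day 14 arrays against 0.49, 0.77 and -0.08 in wildtype day 14 arrays. In day 7 arrays it was at -0.27, -0.50 and 0.24 in IFNAR-/- arrays against 0.33, -0.01 and 0.42 in wildtype arrays. The genotypes did not overlap at day 14 and overlapped at day 7. The differences of -0.87 ± 0.27 (SE) at day 14 and -0.42 ± 0.27 at day 7 did not pass. At day 14 the probe sets 1433662_s_at, 1454677_at and 1460287_at differed by -1.78, -1.84 and -1.75, while 1450040_at differed by -0.51, 1437081_at by -0.02 and 1420924_at by 0.66. Tested one by one over all probe sets, 1454677_at and 1460287_at were lower in IFNAR-/- cells. On 1460287_at the values were -0.18, -0.72 and -0.47 in IFNAR-/- day 14 arrays against 1.57, 1.51 and 0.80 in wildtype day 14 arrays. Which transcripts or ends of the gene these probe sets read is not given in the sources used here.

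**Figure D3:**
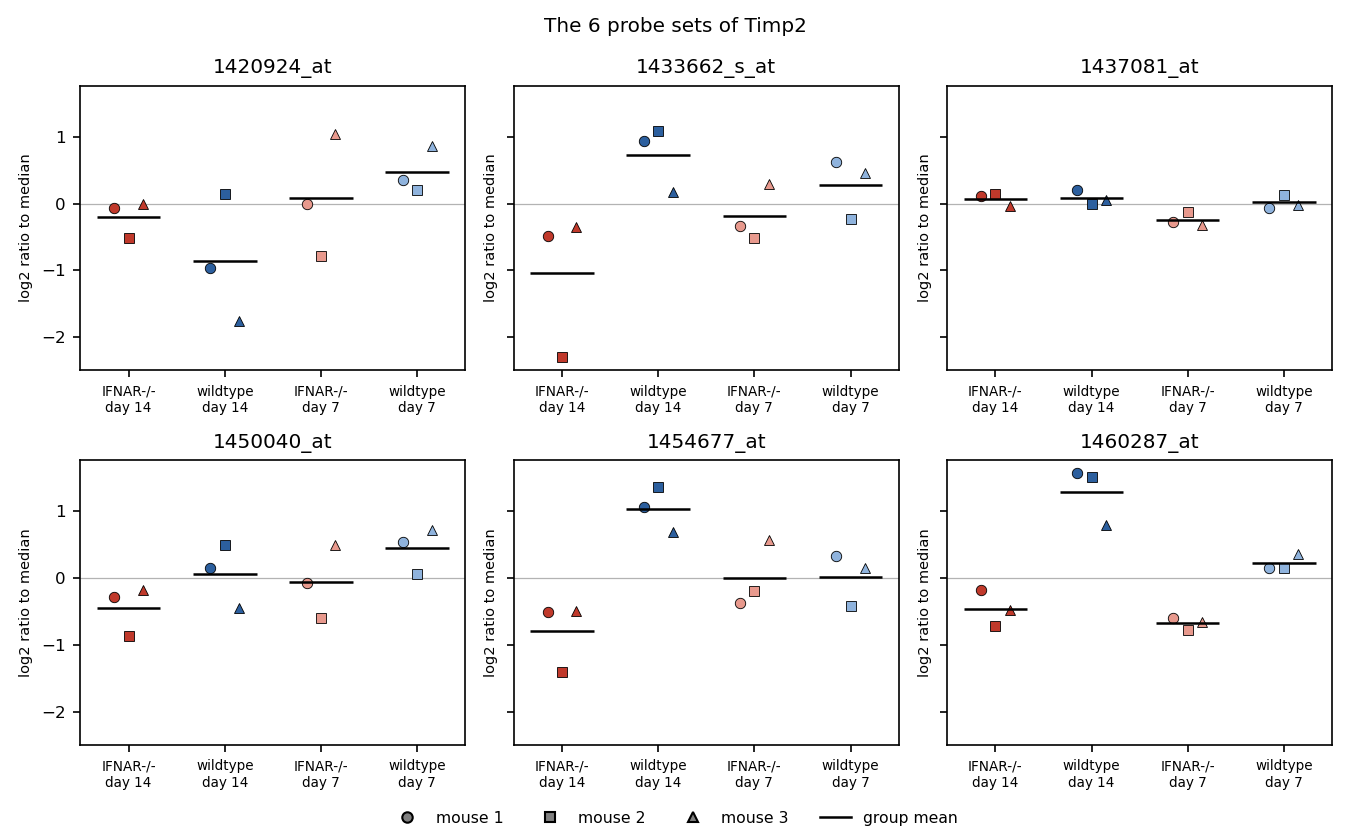
Log2 ratio to the probe set's median over the 12 arrays (vertical axis) for the 6 probe sets of Timp2, by group (horizontal axis), with 1 symbol per mouse and a bar at the group mean. On 3 probe sets the IFNAR-/- day 14 arrays differ from the wildtype day 14 arrays by -1.84 to -1.75 on average, and on 1420924_at by 0.66.

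At day 14, 1 of 9 members passed between genotypes, Mmp2, which was higher in IFNAR-/- cells. Of all 18193 genes 5.04% passed, 1.75% as higher and 3.29% as lower in IFNAR-/- cells. At day 7, 0 of 9 passed by limma, where 2.64% of all genes passed, 1.29% as higher and 1.35% as lower. At an unadjusted p under 0.05 there were 5 of 9, beside 2502 of all 18193 genes. With array weights in limma 1 of 9 passed at day 7. Between days in IFNAR-/- cells 4 members rose and 1 fell, where 12.3% of all genes passed, 4.08% as rises and 8.25% as falls. Between days in wildtype cells 1 rose and 2 fell, where 7.98% of all genes passed, 3.88% as rises and 4.1% as falls. For the change of the genotype difference 0 of 9 passed, and with array weights 2 of 9. Without weights 2.48% of all genes passed, 1.14% as higher and 1.34% as lower. At an unadjusted p under 0.05 there were 4 of 9, beside 3284 of all 18193 genes. Comparisons that share a group share its arrays, and nothing is read from the members' counts against these shares.

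At day 14 the genotypes did not overlap for 5 members, 2 with IFNAR-/- above and 3 with IFNAR-/- below, where 23.4% of all genes did not overlap, 10.2% above and 13.3% below. At day 7 they did not overlap for 4 members, 1 above and 3 below, where 24% of all genes did not, 12.4% above and 11.6% below. Between days this held for 5 members in IFNAR-/- cells, 4 with day 14 above and 1 below, beside 34% of all genes, 16.2% above and 17.8% below. In wildtype cells it held for 5 members, 2 above and 3 below, beside 31.1% of all genes, 16% above and 15.2% below. The median difference of the 9 members was 0.17 between genotypes at day 14 and -0.73 at day 7, where all genes had medians of 0.003 and -0.001. It was 0.37 between days in IFNAR-/- cells and 0.11 in wildtype cells, where all genes had medians of 0.024 and 0.019. The count of 5 members that passed by limma between days in IFNAR-/- cells moved with single arrays. It was 2 without IFNAR-/- day 14 mouse 1, 1 without day 14 mouse 3, 3 without day 7 mouse 2, 2 without day 7 mouse 3, 3 without wildtype day 14 mouse 1 and 3 without both arrays that stand apart. With only the groups compared in the fit 1 of 9 passed in IFNAR-/- cells and 4 of 9 in wildtype cells, and without IFNAR-/- day 14 mouse 3 the counts were 1 and 3, so the data give no order between the genotypes.

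**Figure D4:**
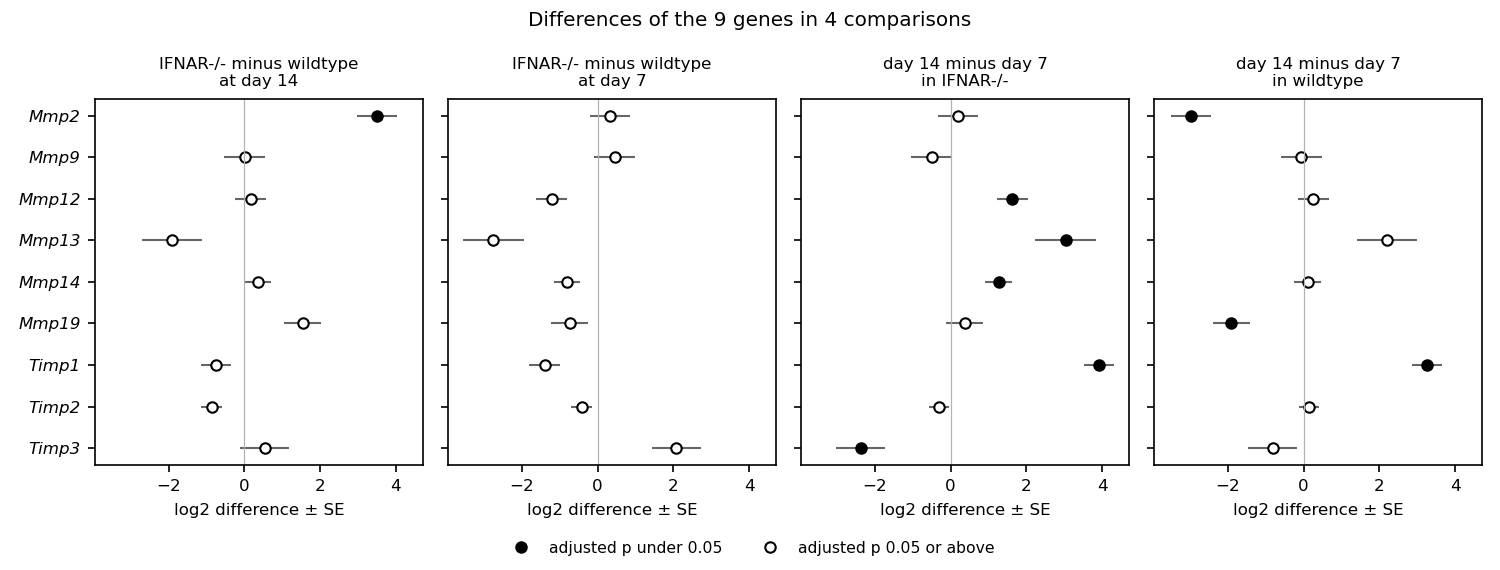
Log2 difference with its SE (horizontal axes) of the 9 genes (vertical axis) in 4 comparisons, 3 arrays per group. Filled points passed at an adjusted p under 0.05 over all genes: Mmp2 between genotypes at day 14, 5 genes between days in IFNAR-/- cells and 3 in wildtype cells.

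The genes whose pattern was most like each member's over the 12 arrays were taken from all other genes by Pearson's r. For Timp1 they were Aimp2 at 0.98, the eosinophil chemokine Ccl24 at 0.97 and the membrane protease Adam8 at 0.97. For Timp3 they were the small heat shock protein Hspb1 at 0.98, Fam107a at 0.97 and Plxna2 at 0.97. These kept r of 0.89 or more over the 10 arrays other than those that stand apart. For Mmp2 they were Fbrsl1 at 0.94, Ebi3, a subunit of dimeric interleukins, at 0.94 and Insyn2a at 0.93. For Mmp19 they were Uhrf1 at 0.95, Rasal3 at 0.95 and Cd83, a marker of mature dendritic cells, at 0.94. The members Mmp2 and Mmp19 themselves had an r of 0.56 over 12 arrays and 0.78 over 10.

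For Mmp13 the most alike genes were St8sia4 at 0.95, Pfdn1 at 0.94 and Ostc at 0.94. For Mmp12 they were the growth factor gene Hbegf at 0.94, Zfp536 at 0.91 and Tes at 0.88. For Mmp14 they were the glucose transporter Slc2a1 at 0.94, Gpr35 at 0.94 and Lrpap1 at 0.93, and for Timp2 Rnase4 at 0.91, Hgsnat at 0.90 and Cacnb2 at 0.90. For Mmp9 they were Prrg3, the Y-linked gene Uty and S100a9, a calcium-binding protein of neutrophils, each at 0.89. Over 10 arrays the last 3 values were 0.62, 0.39 and 0.62, so the likeness to Mmp9 rested on the arrays that stand apart. All these values share the 4 groups.

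Of 18 further Mmp and Timp genes listed, 13 were measured, and Mmp25 was not analysed here. Between days in IFNAR-/- cells 2 of 13 rose, where 4.08% of all genes rose and 12.3% passed. They were Mmp7, matrilysin, by 0.55 ± 0.16 (SE, limma adjusted p 0.0472) and Mmp10, stromelysin 2, by 0.36 ± 0.10 (limma adjusted p 0.0377). Without both arrays that stand apart these were 0.29 and 0.38 and did not pass. The shares of all genes that passed in the other comparisons were 5.04% and 2.64% between genotypes at day 14 and day 7, 7.98% between days in wildtype cells and 2.48% for the change of the genotype difference. By limma 0 of 13 passed in each of these. At an unadjusted p under 0.05 there were 0 between genotypes at day 14 and 1 at day 7. Of all 18193 genes 3819 and 2502 reached it there. Between days in wildtype cells there were 2, against 4020 of all genes. For the change of the genotype difference there were 0, against 3284 of all genes.

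Mmp8, the collagenase that neutrophils store, was at 0.28, 0.02 and -0.40 in IFNAR-/- day 14 arrays against -0.48, -0.70 and -1.14 in wildtype day 14 arrays. At day 7 it was at 0.40, 1.01 and 2.05 in IFNAR-/- arrays against -0.14, -0.05 and 0.89 in wildtype arrays. The genotypes did not overlap at day 14 and overlapped at day 7. The differences of 0.74 ± 0.39 (SE) at day 14 and 0.92 ± 0.39 at day 7 did not pass, with limma adjusted p values of 0.318 and 0.320.

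Among activators, partners and further inhibitors of metalloproteinases, 21 of 24 listed genes were measured. At day 14, 2 were higher and 2 lower in IFNAR-/- than in wildtype cells, where 1.75% and 3.29% of all genes were. Slpi, an inhibitor of neutrophil elastase, was at 0.19, -0.61 and -0.72 in IFNAR-/- day 14 arrays against -1.35, -2.40 and -2.72 in wildtype day 14 arrays, a difference of 1.78 ± 0.34 (SE, limma adjusted p 0.0171). Lcn2, whose human protein forms a complex with that of MMP9, differed by 3.60 ± 0.78 (limma adjusted p 0.0269). Itgb3, the beta chain of an integrin that binds matrix, was at 0.15, -0.03 and 0.21 in IFNAR-/- day 14 arrays against 0.78, 1.28 and 1.25 in wildtype day 14 arrays, a difference of -0.99 ± 0.14 (limma adjusted p 0.00718). Furin, which cuts several proenzymes to their active form, differed by -1.03 ± 0.22 (limma adjusted p 0.0268).

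Slpi, Lcn2, Itgb3 and Furin each placed the wildtype day 14 arrays apart from the IFNAR-/- day 14 arrays. None of the 4 passed with RNA integrity as a covariate, at 1.42, 3.75, -0.89 and -0.98, and Furin did not pass with poly-A signal as a covariate, at -0.82. With 1 array left out, Lcn2 did not pass in 5 of 12 fits, over which its value ran from 3.12 to 3.92, Furin did not pass in 4, and Slpi in 2, without wildtype day 14 mouse 2 or 3, at 1.66 and 1.5. Lcn2 is also one of the 11 measured neutrophil markers. At day 7 by limma 0 of the 21 passed, where 2.64% of all genes did. An unadjusted p under 0.05 was reached by 3 of the 21, beside 2502 of all 18193 genes.

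Between days in wildtype cells 2 of the 21 rose and 4 fell, where 3.88% of all genes rose and 4.1% fell. Itgb3 rose by 1.30 ± 0.14 (SE, limma adjusted p 0.00109). Slpi fell by 2.38 ± 0.34 on the log2 scale (limma adjusted p 0.00279), Thbs1, a matrix glycoprotein that binds metalloproteinases, fell by 3.17 ± 0.50 (limma adjusted p 0.0046), and Cd44, a hyaluronan receptor that docks Mmp9 in other systems, fell by 0.78 ± 0.13 (limma adjusted p 0.00634). These 4 passed whichever 1 array was left out, and of them Itgb3 alone passed with RNA integrity as a covariate, where Slpi was at -2.02, Thbs1 at -2.56 and Cd44 at -0.64. With poly-A signal as a covariate Thbs1, at -2.26, and Cd44, at -0.80, did not pass. In IFNAR-/- cells 1 rose and 2 fell, where 4.08% of all genes rose and 8.25% fell. They were Tfpi2 at 0.77 ± 0.20, Cav1 at -2.51 ± 0.65 and Thbs1 at -1.86 ± 0.50, with limma adjusted p values of 0.0310, 0.0305 and 0.0343. Without IFNAR-/- day 14 mouse 2 Thbs1 was -1.21 and did not pass, and without both arrays that stand apart none of these 3 passed, at 0.68, -1.81 and -1.29. For the change of the genotype difference 0 of 21 passed by limma, where 2.48% of all genes did. Of the 21, 8 had an unadjusted p under 0.05, beside 3284 of all 18193 genes.

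Of 26 ADAM and ADAMTS proteases listed, relatives that cut proteins off the cell surface or out of the matrix, 24 were measured. Adam8, which leukocytes carry, rose between days by 2.56 ± 0.32 (SE, limma adjusted p 0.00123) in IFNAR-/- cells and by 1.72 ± 0.32 (limma adjusted p 0.0100) in wildtype cells. It was at 0.18, 0.31 and 0.85 in IFNAR-/- day 14 arrays against 0.96, 1.12 and 1.10 in wildtype day 14 arrays. The day 7 values were -1.69, -1.99 and -2.64 in IFNAR-/- arrays against -0.20, -0.33 and -1.44 in wildtype arrays. As for Timp1, none of the 4 groups overlapped another, in the same order. With RNA integrity as a covariate the wildtype rise was 1.66 and did not pass.

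At day 7 Adam8 was lower in IFNAR-/- cells, with a difference of -1.45 ± 0.32 (SE, limma adjusted p 0.0405), and Adam22 higher by 0.70 ± 0.16 (limma adjusted p 0.047), and each passed in only 3 of 12 fits with 1 array left out. Adam22 fell between days in IFNAR-/- cells by 0.84 ± 0.16 (limma adjusted p 0.00805). At day 14 by limma 0 of 24 passed between genotypes, where 5.04% of all genes did. An unadjusted p under 0.05 was reached by 5 of 24, beside 3819 of all 18193 genes. For the change of the genotype difference 0 of 24 passed, where 2.48% of all genes did. An unadjusted p under 0.05 was reached by 3 of 24, beside 3284 of all 18193 genes.

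Of 12 other proteases that degrade matrix, 11 were measured. Ctsl, cathepsin L, a lysosomal cysteine protease that also cuts elastin and collagen, was at -0.08, -0.43 and -0.08 in IFNAR-/- day 14 arrays against 2.28, 1.32 and 1.52 in wildtype day 14 arrays. In day 7 arrays it was at -0.04, -0.03 and -0.29 in IFNAR-/- arrays against -0.16, 0.11 and 0.02 in wildtype arrays. The wildtype day 14 arrays lay above all 9 others, where those of Mmp2 lay below all 9 others. Ctsl differed between genotypes by -1.90 ± 0.21 (SE, limma adjusted p 0.0018) at day 14, and rose between days by 1.72 ± 0.21 (limma adjusted p 0.00149) in wildtype cells. The change of its genotype difference, -1.80 ± 0.30 (limma adjusted p 0.0168), was the only 1 of the 92 related genes measured to pass.

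Between days, Ctsd, the aspartic protease cathepsin D, fell by 0.63 ± 0.13 (SE, limma adjusted p 0.0122) in IFNAR-/- cells and by 0.58 ± 0.13 (limma adjusted p 0.0240) in wildtype cells, where it passed in 7 of 12 fits with 1 array left out. Hpse, heparanase, rose by 1.59 ± 0.44 (limma adjusted p 0.0401) in IFNAR-/- cells and did not pass in 9 of 12 fits with 1 array left out. At day 7 by limma 0 of the 11 passed between genotypes, where 2.64% of all genes did. An unadjusted p under 0.05 was reached by 3 of the 11, beside 2502 of all 18193 genes.

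**Figure D5:**
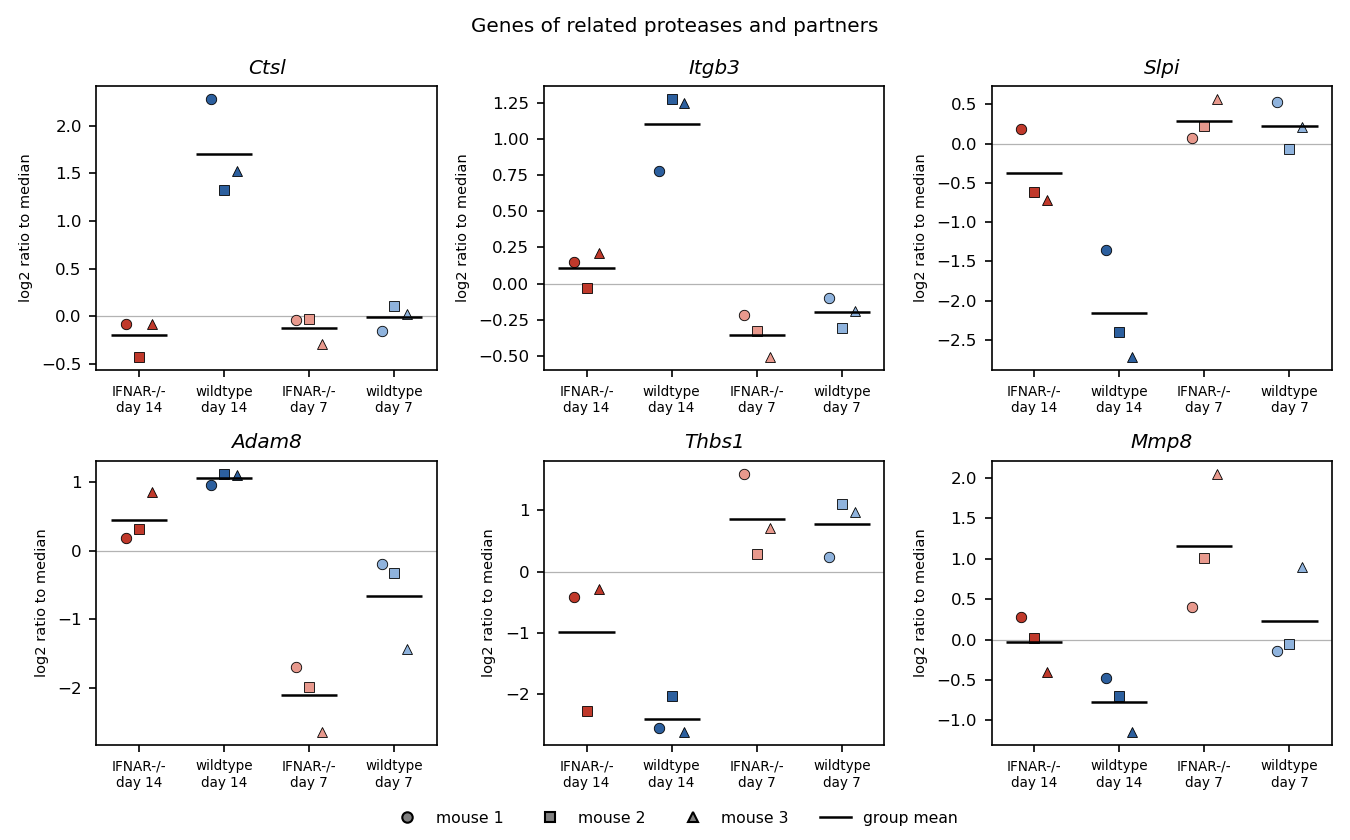
Log2 ratio to the median over the 12 arrays (vertical axes) of 6 related genes, by group (horizontal axes), with 1 symbol per mouse and a bar at the group mean. The wildtype day 14 arrays of Ctsl, at 1.32 to 2.28, and Itgb3, at 0.78 to 1.28, lie above all others, and those of Slpi, at -2.72 to -1.35, lie below all others.

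Calls among the matrix proteins that these enzymes cut depended on the fit. By limma 0 of 23 measured collagens, laminins, proteoglycans and other substrates passed in each of the 5 comparisons. At an unadjusted p under 0.05 there were 3 between genotypes at day 14 and 2 at day 7. Of all 18193 genes 3819 and 2502 reached it there. Between days there were 2 in IFNAR-/- cells and 3 in wildtype cells, against 5211 and 4020 of all genes. For the change of the genotype difference there were 0, against 3284 of all genes. Between days in wildtype cells 11 of 23 lay lower at day 14 with no overlap, where 15.2% of all genes did, and their median difference was -0.53. Without IFNAR-/- day 7 mouse 3, an array outside this comparison that enters its estimate of the spread, 7 of 23 fell in wildtype cells. These genes, chosen after their values were seen, were the fibrillar collagen genes Col1a1, Col1a2, Col3a1 and Col5a2, with Col6a3, Bgn and Sparc, at -1.96 for Bgn, -1.68 for Col3a1 and -0.53 for Col1a1. With poly-A signal as a covariate 13 of 23 passed as falls in wildtype cells and 4 of 23 as higher in IFNAR-/- cells at day 14. Poly-A signal did not overlap between days in wildtype cells. Its slope leans on IFNAR-/- day 7 mouse 3, the array highest in fibroblast markers. Shares of all genes were not computed for the fit with poly-A signal or for the one without IFNAR-/- day 7 mouse 3. Nothing about matrix genes as a group is therefore read from these counts. Fibroblast markers had medians of -0.33 to -0.22 in wildtype day 14 arrays and -0.14 to 0.6 in wildtype day 7 arrays. Col1a1, Col1a2, Col3a1 and Col6a3 are themselves among the 12 fibroblast markers, so these markers are no separate reading of the matrix genes. Their part was not tested. With array weights the 92 related genes as a whole gave 9 calls between genotypes at each day, against 5 at day 14 and 2 at day 7 without weights.

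Over the 5 lists, 5 of the 92 related genes passed between genotypes at day 14 and 2 at day 7, beside the 5.04% and 2.64% of all genes. Between days 9 passed in IFNAR-/- cells and 9 in wildtype cells, beside 12.3% and 7.98%. Single arrays moved these counts. At day 14 the count was 3 without IFNAR-/- day 14 mouse 1 or wildtype day 14 mouse 1 and 2 without wildtype day 14 mouse 3. In IFNAR-/- cells it was 3 without day 14 mouse 2, 5 without day 14 mouse 3, and 4 without day 7 mouse 1 or mouse 3. In wildtype cells it was 16 without IFNAR-/- day 7 mouse 3. For the change of the genotype difference it was 3 without wildtype day 14 mouse 1 and 2 without wildtype day 14 mouse 2 or IFNAR-/- day 7 mouse 2. At day 7 it ran from 0 to 3 over the 12 arrays left out. With RNA integrity as a covariate the related genes that still passed were Ctsl between genotypes at day 14, Thbs1, Adam8, Adam22 and Ctsd between days in IFNAR-/- cells, and Itgb3 and Ctsl between days in wildtype cells.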

How the data were processed

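RNA from CD11c+ lung cells of 12 mice was measured on 12 Affymetrix arrays, 1 per mouse, and arrays were grouped by the labels. The submitters' processing notes name RMA, with no version; genome build and further steps are not given in the sources used here. The deposited value is a linear ratio of the authors' value to about the probe set's median over the 12 arrays, which was read from the values: 100% of medians lay within 0.02 of 1. Levels and signal over background are therefore unknown, and precision is limited by how many arrays there are. The table has 45101 probe sets with 3 missing values. Of these, 34945 carry 1 gene symbol, 34741 of them matched by Entrez identifier to RefSeq genes of GRCm38.p6, and their log2 ratios were averaged to 18193 genes. There was no filter on dim probe sets, since ratios do not allow one.

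A mean for each of the 4 groups was estimated per gene by limma 3.58.1 (R 4.3.3), with 8 residual degrees of freedom, 3.21 prior degrees of freedom and 0.171 as the prior SD. P values are two-sided and adjusted by Benjamini-Hochberg over 18193 genes at 0.05, and the fit was tested on simulated data. The members, the lists of related and marker genes, the motifs and the alternatives were chosen with earlier results of these data known. All members are named, up to 4 genes of lowest p per list and comparison, every further Mmp or Timp gene that passed, Mmp8 and Mmp25, and the 3 genes most like each member. Poly-A signal is the mean of 12 spike-in probe sets.

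Mouse numbers recur across groups, but mice differ and the labels mark no shared litter or day. The correlation of same-numbered arrays' deviations from their group means ran from -0.4 to 0.23, so the numbers were not taken as pairs.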

Additional observations from a re-analysis of the deposited data

Results flagged for a closer look

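Ctsl was picked out because its genotype difference itself differed between days, by -1.80 ± 0.30 (SE, limma adjusted p 0.0168 over all genes). The difference was -1.90 ± 0.21 at day 14 and within 0.11 of 0 at day 7, where IFNAR-/- arrays averaged -0.12 ± 0.15 (SD, n = 3) and wildtype arrays -0.01 ± 0.13. It passed whichever 1 array was left out, at -1.99 to -1.51. It did not pass with the RNA integrity measure as a covariate, at -1.89, with a trended and robust prior, at -1.80, or without 3 arrays, at -1.69.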

How the results depend on the processing

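No difference of a member changed sign where it had passed, under any alternative run, and the cause of the changes below was not tested. Counts are given as members of 9, then related genes of 92. Shares of all genes were not computed for the alternative fits, so these counts have no baseline. Between genotypes at day 14 they were 1 and 5. They were 2 and 7 with the probe set of largest standard deviation, 2 and 8 with every probe set by itself, 3 and 9 with array weights, 2 and 9 without both arrays that stand apart, 0 and 1 with RNA integrity as a covariate, 3 and 10 with poly-A signal as a covariate and 2 and 10 without 3 arrays, a fit added after the data were seen. At day 7 they were 0 and 2. They were 1 and 9 with array weights and 1 and 3 without 3 arrays. For related genes alone they were 1 with a trended and robust prior, 1 with the replicate block, 5 among genes above the median standard deviation, and 0 with only the groups compared, without both arrays and with either covariate. Between days in IFNAR-/- cells they were 5 and 9, against 1 and 6 with only the groups compared, 3 and 4 without both arrays, 4 and 4 with the RNA integrity covariate, 6 and 17 with array weights and 5 and 2 without 3 arrays. In wildtype cells they were 3 and 9, against 1 and 2 with the RNA integrity covariate, 4 and 22 without both arrays and 3 and 19 with poly-A signal. With poly-A signal, which did not overlap between the wildtype days, Mmp2 and Mmp19 no longer passed there and Mmp13 and Timp3 did. Of the 19 related genes 13 were matrix genes. For the change of the genotype difference they were 0 and 1. Members numbered 1 with the largest standard deviation probe set, the replicate block, genes above the median standard deviation, and without both arrays or 3 arrays, and 2 with array weights. Related genes numbered 3 with quantile normalization, every probe set or poly-A signal, 2 with the largest standard deviation probe set, the replicate block or genes above the median standard deviation, 6 with array weights and 0 with a trended prior or the RNA integrity covariate. With each array left out, member counts ran from 1 to 2 between genotypes at day 14, 0 to 0 at day 7, 1 to 5 between days in IFNAR-/- cells, 2 to 3 in wildtype cells and 0 to 1 for the change. Related genes ran from 2 to 7, 0 to 3, 3 to 10, 6 to 16 and 1 to 3 in the same order. With the replicate block the fall of Timp3 between days in IFNAR-/- cells, -2.37, did not pass and the change of Mmp2, 3.17, did. The numbers do not pair the mice. Probe set brightness is unknown, so no limit from background could be set.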
